A study of Rattus norvegicus with 6 samples.

Results

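Complement and coagulation genes encode the cascades of plasma proteins that coat microbes, form the membrane attack complex, clot blood and dissolve the clot. Of these genes 41 were chosen by symbol, from the known functions of their products and with no measured value in the rule. Earlier results of these data were known when they were chosen. A probe was matched to 36 of the 41 through its RefSeq accession, and all 36 were well above background on each of the 6 arrays and unsaturated. The other 5 (C5, C8g, F5, F11 and F13b) had no matched probe and were not analysed here. The 36 are part of 11939 genes tested in whole liver. Liver RNA came from 6 male Sprague-Dawley rats, an outbred stock, bought at 5 weeks of age, with 1 array per animal. Of these, 3 rats were given corn oil, the vehicle, and 3 were given carbon tetrachloride (CCl4), a solvent that injures hepatocytes, at 100 mg/kg/day. The labels give 9 weeks of dosing in the protocol but 28 days in the design text, and the files do not settle which holds. Levels are log2 of the processed signal relative to the 75th percentile of the same array, so that 0 is the signal at that percentile, and a change is the mean CCl4 level minus the mean corn oil level on that scale.

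Both cascades run mainly on proteins that hepatocytes secrete. In complement, the lectin and classical pathways start with pattern-binding proteins and their proteases, and the alternative pathway amplifies the signal on C3. All of them lead to the terminal components, which assemble into a pore in the target membrane. In coagulation, vitamin K-dependent proteases activate one another and finally thrombin, which turns fibrinogen into fibrin, while antithrombin, heparin cofactor II and the protein C system restrain thrombin, and plasmin dissolves the fibrin. Several of these proteins, fibrinogen among them, are acute phase reactants whose genes respond to interleukin-6, and low levels of others are a clinical sign of reduced hepatocyte function. All 17 hepatocyte markers were well above background on every array. Of the 11939 genes tested, 11115 had a probe that was, so this alone does not identify the tissue.

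The members were lower in CCl4 liver almost throughout, by small amounts. The mean level was lower in CCl4 for 34 of 36 genes (94.4%), where 57.2% of all genes tested were, and the median change was -0.33 against -0.05 over all genes tested. The decreases of 6 genes exceeded 0.5 on the log2 scale and 23 lay between 0.25 and 0.5. No member passed the test: limma called 0 of 36 at an adjusted p below 0.05, where it called 0.637% of all genes (0.0754% lower and 0.561% higher), and the smallest adjusted p among the members was 0.0996. At an unadjusted p below 0.05 there were 15 members lower (41.7%) and 0 higher, where 9.77% of all genes were lower and 9.95% higher. The 3 CCl4 arrays lay below the 3 corn oil arrays for 18 members (50%), where 15.9% of all genes showed this, and above them for 0 members, where 11.5% of all genes did. Among other genes the share lower without overlap rose with signal level, from 11.5% at levels below 0, where 0 members lay, to 32.5% at 8 or more. At levels of 4 to 6 it held for 3 of 9 members and 22.1% of other genes. At 6 to 8 these were 5 of 10 and 26.5%, and at 8 or more 8 of 12 and 32.5%. Both remaining genes, C2 and F7, had changes of 0.006 and 0.009, which turned to -0.023 and -0.021 under median scaling. In whole liver, fewer hepatocytes and less RNA per hepatocyte cannot be told apart.

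**Figure D1:**
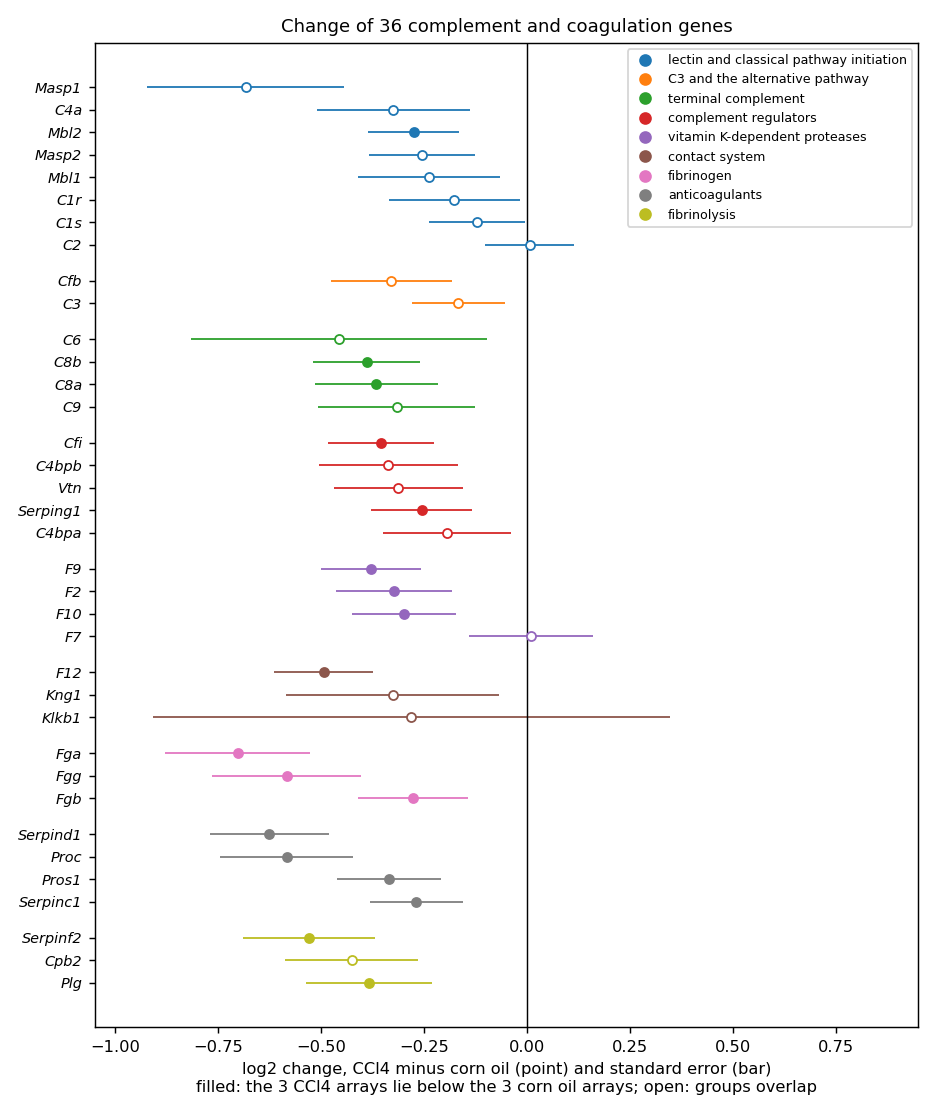
Log2 change (horizontal axis, CCl4 minus corn oil) of each of the 36 genes with its standard error, coloured by role, with filled points where the groups of 3 arrays did not overlap. All points lie at or left of 0.01, Fga is lowest at -0.70, and the widest bar belongs to Klkb1.

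The size of the decrease depended on the array and on the scaling. Relative to each member's corn oil mean, the median member was at -0.27 on CCl4 replicate 1, -0.51 on CCl4 replicate 2 and -0.23 on CCl4 replicate 3, and at 0.06, -0.15 and 0.09 on corn oil replicates 1 to 3. CCl4 replicate 2 had the lowest of the 6 values for 25 of 36 members, and corn oil replicate 2 the lowest corn oil value for 31 of 36. Without CCl4 replicate 2 the median change was -0.26, and without corn oil replicate 2 it was -0.44. The count at an unadjusted p below 0.05 dropped from 15 to 6 when CCl4 replicate 2 was left out, to 6 for corn oil replicate 1 and to 5 for corn oil replicate 3. For CCl4 replicate 1 the drop was to 11. Leaving out corn oil replicate 2 raised the count to 19, and for CCl4 replicate 3 it became 16. The share of all genes at that limit with 1 array left out is not given, and the cause of these shifts was not tested. CCl4 replicates 2 and 3 were on a second slide scanned on another day. Within the first slide, which sets CCl4 replicate 1 against the 3 corn oil arrays, the median change was -0.27 and 34 of 36 members were lower. Slide as a fixed block must give the same changes, because the second slide held no corn oil array, and is not a separate check. Apart from C2 and F7, the change of 13 of 34 members moved by over 1.5 times within the first slide, 11 of them towards 0. Without CCl4 replicate 2 this held for 11 members, 10 of them towards 0.

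**Figure D2:**
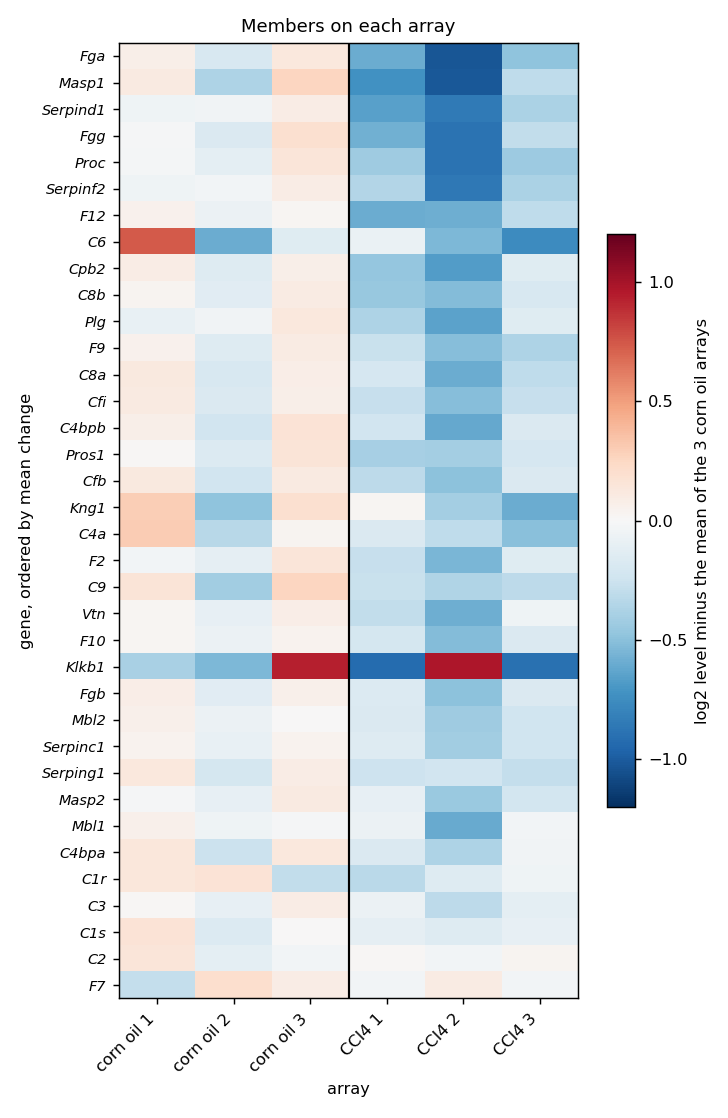
Level of each member (rows, ordered by mean change) on each array (columns) as the log2 difference from the mean of the 3 corn oil arrays, blue for lower and red for higher. CCl4 replicate 2 is the darkest blue column, with a median of -0.51, and Klkb1 and C6 vary most between arrays of a group.

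Bright genes as a class were lower too. Of the 36 members, 12 had a mean level of 8 or more, and their median change was -0.32, with 12 of 12 lower. The 114 other genes at that level had a median of -0.19, and 75.4% of them were lower. Quantile normalization, which gives each array the same distribution of signals, moved those 114 genes to a median of -0.01 and the 12 bright members to -0.11. The 24 dimmer members went from -0.33 to -0.28 under the same step. The changes of C3 (-0.17), Serping1 (-0.26), Fgb (-0.28) and Serpinc1 (-0.27) became -0.025, -0.037, -0.08 and -0.06. The changes of 11 members (those 4, C1s, C4a, Cfb, Cfi, Vtn, F2 and Plg) came nearer to 0 by over 1.5 times, and the count at an unadjusted p below 0.05 became 8, all with a lower mean. The share of all genes at that limit under quantile normalization is not given.

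**Figure D3:**
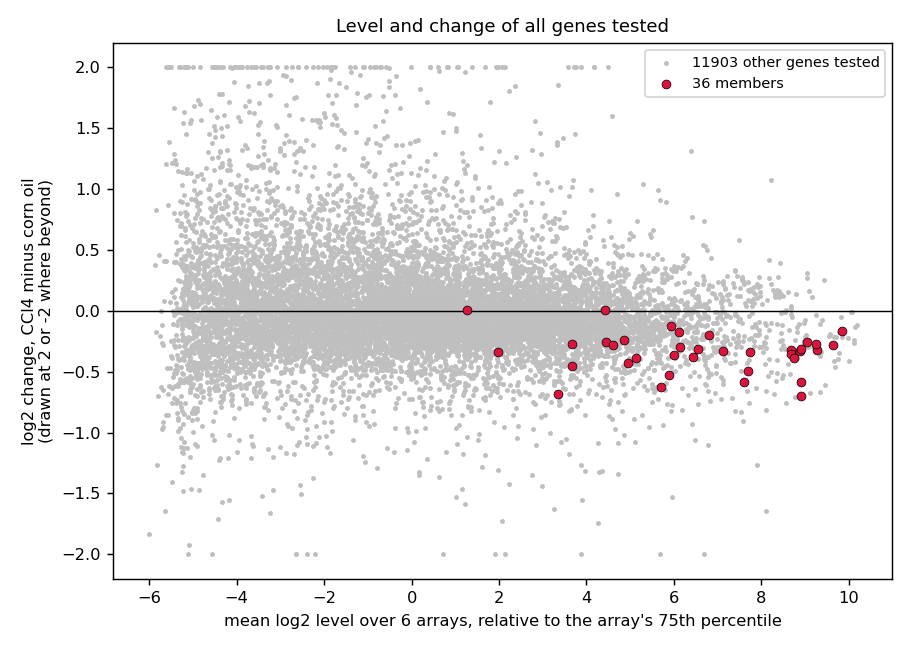
Mean log2 level over the 6 arrays (horizontal axis) against the log2 change (vertical axis) for the 11939 genes tested, with the 36 members in red. The members lie between levels of 1.27 and 9.85, and 34 of them lie below 0.

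Fibrinogen is a dimer of paired alpha, beta and gamma chains made from Fga, Fgb and Fgg, which are neighbours with no other protein-coding gene between them in RefSeq. The 250 bases before the start of each are shown because these genes are the textbook case of acute phase control, with those of C8a and C8b, 2 further neighbours whose products sit in 1 complex. They are from RefSeq (GRCr8), 5′ to 3′ on the coding strand, in lower case. Fga is at chr2:170671919-170672168 on the plus strand (the first of 2 listed starts), Fgb at chr2:170700876-170701125 on the minus strand, Fgg at chr2:170652833-170653082 on the plus strand, C8a at chr5:124866632-124866881 on the minus strand and C8b at chr5:124763864-124764113 on the plus strand. Capitals mark matches on either strand to CTGGGAA (the core of the interleukin-6 responsive element) or TTGCNNAA (a C/EBP motif).
Fga: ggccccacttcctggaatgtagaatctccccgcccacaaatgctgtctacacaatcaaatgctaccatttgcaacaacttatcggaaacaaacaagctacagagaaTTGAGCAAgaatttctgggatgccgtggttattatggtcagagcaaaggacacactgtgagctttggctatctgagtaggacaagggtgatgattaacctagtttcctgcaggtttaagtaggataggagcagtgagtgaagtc
Fgb: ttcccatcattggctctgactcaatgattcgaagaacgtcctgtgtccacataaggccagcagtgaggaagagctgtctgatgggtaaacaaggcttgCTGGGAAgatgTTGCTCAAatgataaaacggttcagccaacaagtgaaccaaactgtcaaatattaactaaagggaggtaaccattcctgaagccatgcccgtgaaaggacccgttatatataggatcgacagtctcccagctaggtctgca
Fgg: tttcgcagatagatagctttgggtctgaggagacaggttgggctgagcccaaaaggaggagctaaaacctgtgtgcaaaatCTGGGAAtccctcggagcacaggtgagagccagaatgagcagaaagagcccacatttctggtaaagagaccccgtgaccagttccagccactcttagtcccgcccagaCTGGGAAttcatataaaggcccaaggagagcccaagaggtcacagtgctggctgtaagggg
C8a: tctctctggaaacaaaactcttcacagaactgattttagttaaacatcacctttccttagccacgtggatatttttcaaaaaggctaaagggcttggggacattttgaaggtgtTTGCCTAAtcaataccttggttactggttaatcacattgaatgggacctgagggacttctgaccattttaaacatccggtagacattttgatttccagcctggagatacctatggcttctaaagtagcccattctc
C8b: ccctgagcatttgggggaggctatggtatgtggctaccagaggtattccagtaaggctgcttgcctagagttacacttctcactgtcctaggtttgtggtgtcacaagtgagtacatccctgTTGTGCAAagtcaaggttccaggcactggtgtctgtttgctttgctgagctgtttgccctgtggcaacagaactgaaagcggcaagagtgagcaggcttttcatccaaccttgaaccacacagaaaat
Fgb held 1 match to each motif, Fga a C/EBP match alone, and Fgg 2 interleukin-6 matches. C8a and C8b held a C/EBP match each. Promoter entries were found for 28 of the 36 members. CTGGGAA was in 11 of the 28 (39.3%) and in 9.56% of the 33469 listed promoters, and TTGCNNAA was in 12 (42.9%) and in 9.22%. The shares of members count genes and those of listed promoters count promoters, and a gene can have several. The shares are thus in unlike units. A match is a string of letters and not a site shown to be bound, and no motif's share was tested.

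All 3 fibrinogen genes were lower on every CCl4 array than on any corn oil array. This held for 15.9% of all genes and for 32.5% of the 114 other genes at a level of 8 or more. Fga read 9.33, 9.07 and 9.39 on corn oil replicates 1 to 3 and 8.67, 8.24 and 8.78 on CCl4 replicates 1 to 3. Its change was the lowest of the members, -0.70 ± 0.18 (SE, n = 3 arrays per group; adjusted p = 0.112), or 1.63-fold lower. Fgg, the gamma chain gene, read 9.20, 9.03 and 9.40 in corn oil and 8.64, 8.33 and 8.91 in CCl4. That is a gap of 0.12 between the lowest corn oil and the highest CCl4 value, and a change of -0.58 ± 0.18 (adjusted p = 0.166). Fgb, the beta chain gene, was at -0.28 ± 0.13 (adjusted p = 0.303), and its lowest corn oil value of 9.65 and highest CCl4 value of 9.62 nearly met. A second, dimmer Fgb probe gave -0.54, while both Fgg probes gave -0.58. The difference between the chains was not tested.

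Of the 4 genes that hold thrombin and its makers in check, 4 had groups that did not overlap (15.9% of all genes, lower) and 3 had an unadjusted p below 0.05 (9.77% of all genes, lower). Serpind1 encodes heparin cofactor II, an inhibitor of thrombin. It read 5.97, 5.97 and 6.10 in corn oil and 5.36, 5.17 and 5.64 in CCl4, so that corn oil arrays lay within 0.14 of each other and all CCl4 arrays lay below them. The change was -0.63 ± 0.14, or 1.54-fold lower, with the smallest adjusted p of the members (0.0996). Under normexp background correction its adjusted p was 0.0581. Proc, which encodes the anticoagulant protease protein C, read 7.86, 7.77 and 8.03 in corn oil and 7.46, 6.99 and 7.44 in CCl4 (-0.58 ± 0.16; adjusted p = 0.136), where CCl4 replicate 2 was the low array. Pros1, its cofactor protein S, was at 2.16, 1.98 and 2.30 in corn oil and 1.75, 1.73 and 1.95 in CCl4 (-0.34 ± 0.13; adjusted p = 0.225). Those groups came within 0.04 of each other. Serpinc1, the gene of antithrombin, was at -0.27 ± 0.11 (adjusted p = 0.256).

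Fibrinolysis genes were lower by 0.38 to 0.53, and each of the 3 had an unadjusted p below 0.05, against 9.77% of all genes. Serpinf2, which encodes the plasmin inhibitor alpha-2-antiplasmin, read 6.11, 6.13 and 6.25 in corn oil and 5.81, 5.31 and 5.78 in CCl4 (-0.53 ± 0.16; adjusted p = 0.160). Within the first slide its change was -0.35. Plg, the plasminogen gene, read 8.85, 8.89 and 9.06 in corn oil and 8.56, 8.29 and 8.79 in CCl4 (-0.38 ± 0.15; adjusted p = 0.243), and was at -0.19 under quantile normalization. Cpb2 encodes a carboxypeptidase that protects fibrin from plasmin. It was at -0.43 ± 0.16 (adjusted p = 0.229), with overlapping groups, since CCl4 replicate 3 (5.02) lay above corn oil replicate 2 (5.00). The genes of plasmin's precursor and of the proteins that restrain plasmin or its action on fibrin thus all had lower mean RNA levels. Protein was not measured.

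Among the vitamin K-dependent proteases, 3 of 4 measured genes had groups that did not overlap, against 15.9% of all genes. F9, the gene of factor IX, which is missing in haemophilia B, read 6.67, 6.47 and 6.72 in corn oil and 6.36, 6.11 and 6.25 in CCl4 (-0.38 ± 0.12; adjusted p = 0.178). F2, the prothrombin gene, was at -0.32 ± 0.14 (adjusted p = 0.266), and F10, the gene of factor X, at -0.30 ± 0.13 (adjusted p = 0.259). F7 encodes factor VII, which starts coagulation with tissue factor, and is the next gene to F10 in RefSeq. It was at 0.01 ± 0.15, with corn oil values of 0.97, 1.46 and 1.35 that enclosed the CCl4 values of 1.23, 1.36 and 1.23. Its probe had the lowest signal of the members', and whether its change differed from that of F10 was not tested.

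In the contact system, which triggers clotting on charged surfaces, F12 had the lowest change of 3 measured genes and groups that did not overlap. F12, the gene of factor XII, read 7.99, 7.88 and 7.97 in corn oil and 7.35, 7.36 and 7.64 in CCl4. The change was -0.49 ± 0.12 (adjusted p = 0.106), or 1.41-fold lower, and a second probe gave -0.57. Klkb1, the plasma prekallikrein gene, could not be placed, as it read 4.37, 4.22 and 5.69 in corn oil and 3.83, 5.73 and 3.87 in CCl4 (-0.28 ± 0.63; adjusted p = 0.834). Its high values came from corn oil replicate 3 and CCl4 replicate 2, and its change was 0.19 without the former and -0.91 without the latter. Kng1, a kininogen gene, was at -0.33 ± 0.26 (adjusted p = 0.511), at 0.024 within the first slide, at -0.57 without corn oil replicate 2 and at -0.18 without corn oil replicate 1. Rat kininogen genes are close copies, and its probes may not be specific.

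Terminal complement genes were all lower, by 0.32 to 0.46 in the 4 measured. C8a and C8b encode 2 chains of component 8, which inserts into the target membrane. C8a read 6.30, 5.99 and 6.27 in corn oil and 5.99, 5.59 and 5.88 in CCl4 (-0.37 ± 0.15; adjusted p = 0.250). Its lowest corn oil and highest CCl4 values were equal to 2 decimals, and its 2 further probes gave 0.023 and -0.34. C8b read 5.36, 5.19 and 5.42 in corn oil and 4.87, 4.80 and 5.13 in CCl4 (-0.39 ± 0.13; adjusted p = 0.192), with every CCl4 array below every corn oil array. C9, whose product lines the pore, was at -0.32 ± 0.19 (adjusted p = 0.396), and ran from -0.53 without corn oil replicate 2 to -0.19 without corn oil replicate 3. C6, which joins the complex earlier, read 4.63, 3.30 and 3.74 in corn oil and 3.81, 3.36 and 3.14 in CCl4 (-0.46 ± 0.36; adjusted p = 0.511). It was -0.09 without corn oil replicate 1, the highest array, and -0.75 without corn oil replicate 2.

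Of the 8 genes that start the lectin and classical pathways, 7 had a lower mean, against 57.2% of all genes, and 1 had groups that did not overlap, against 15.9%. Masp1, a protease that activates the lectin pathway, read 3.81, 3.32 and 3.95 in corn oil and 2.97, 2.68 and 3.38 in CCl4. The change of -0.68 ± 0.24 (adjusted p = 0.204) was the lowest among the complement members, although CCl4 replicate 3 lay above corn oil replicate 2, and 3 further Masp1 probes gave -0.38 to -0.46. Mbl2, a mannose-binding lectin that Masp1 binds, read 3.88, 3.75 and 3.82 in corn oil and 3.65, 3.39 and 3.58 in CCl4 (-0.28 ± 0.11; adjusted p = 0.244). Both groups of Mbl2 were tight and stood apart by 0.10. The related lectin gene Mbl1 was at -0.24 ± 0.17, with CCl4 replicate 2 at 4.37 and all other arrays at 4.90 to 5.03, and was at -0.05 without that array. Masp2, a second lectin pathway protease, was at -0.26 ± 0.13. The classical pathway proteases C1r (-0.18 ± 0.16) and C1s (-0.12 ± 0.12) and the convertase component C4a (-0.32 ± 0.19) had overlapping groups, and C4a has a close copy, C4b, from which its probes may not tell it apart. When 1 array was left out, C1r ran from -0.33 (without corn oil replicate 3) to -0.10 (without corn oil replicate 2). C1s ran from -0.20 to -0.04 and C4a from -0.49 to -0.17, both from corn oil replicate 2 left out to corn oil replicate 1 left out. C2, the protease that pairs with it in the C3 convertase, had CCl4 values of 4.43, 4.39 and 4.45 that lay inside the corn oil range of 4.30 to 4.56.

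C3, the component on which the pathways meet, was at -0.17 ± 0.11 (adjusted p = 0.446). Cfb, the alternative pathway protease, is the next gene to C2 in RefSeq. It read 9.17, 8.82 and 9.16 in corn oil and 8.73, 8.56 and 8.87 in CCl4 (-0.33 ± 0.15; adjusted p = 0.276), and CCl4 replicate 3 lay just above corn oil replicate 2. All 5 complement regulators were lower, by 0.20 to 0.35. Cfi, the protease that inactivates C3b and C4b, read 8.95, 8.67 and 8.92 in corn oil and 8.57, 8.33 and 8.57 in CCl4 (-0.35 ± 0.13; adjusted p = 0.215), and was at -0.17 under quantile normalization. Its groups stood 0.10 apart. Serping1, the C1 inhibitor gene, was at -0.26 ± 0.12, the C4b-binding protein genes C4bpa and C4bpb at -0.20 ± 0.16 and -0.34 ± 0.17, and Vtn, the vitronectin gene, at -0.31 ± 0.16. C4bpa ran from -0.33 without corn oil replicate 2 to -0.11 without CCl4 replicate 2. Taking the 2 cascades apart, the median change was -0.31 over 19 complement genes, 5 of them with groups that did not overlap, and -0.38 over 17 coagulation and fibrinolysis genes, 13 of them without overlap, a difference that was not tested. Over all genes 15.9% were lower without overlap, and 11.5% to 32.5% of other genes, rising with signal level.

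For 20 of the 36 members the array carried more than 1 matched probe. On the 25 further probes the change was negative for 24, C8a holding the exception. The next-brightest probe gave the more negative change for 13 of these 20 genes, and the median over the 20 was -0.33 on the brightest and -0.44 on the next-brightest probe. Serpinc1 was at -0.27 and -0.51 on its pair of probes, and Masp2 at -0.26, -0.49 and -0.33 on its 3.

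**Figure D4:**
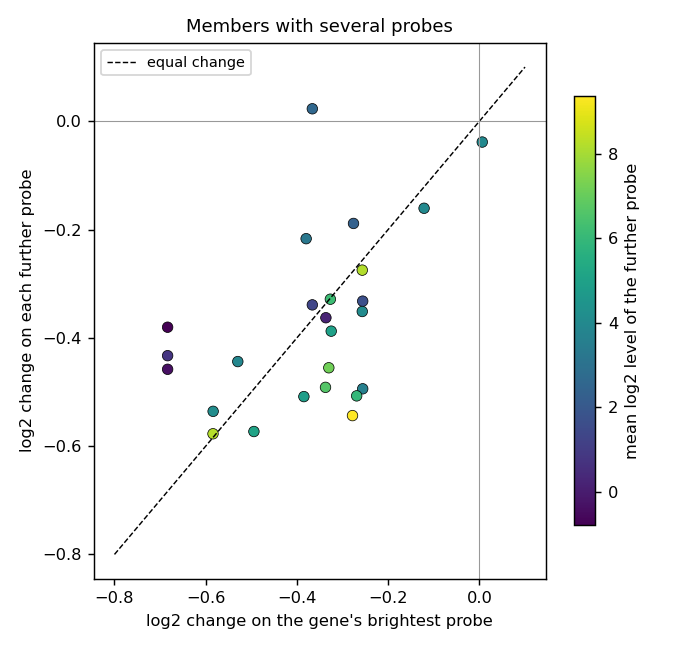
Log2 change on the brightest probe of each gene (horizontal axis) against that on each of its 25 further probes (vertical axis), coloured by the further probe's mean level, with a dashed line at equal change. All but 1 of the further probes lie below 0.

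The other genes of both cascades, from 2 lists chosen by function, showed no common direction. Of 33 other complement genes 22 were measured, 11 lower and 11 higher, with 0 past the threshold and, at an unadjusted p below 0.05, 7 lower and 5 higher. Of 37 other coagulation and fibrinolysis genes 28 were measured, 12 lower and 16 higher, with 0 past the threshold and 3 lower and 9 higher at an unadjusted p below 0.05. Over all genes tested, 9.77% were lower and 9.95% higher at that unadjusted limit. The medians were -0.10 and 0.08. Among other complement genes with an unadjusted p below 0.05 and groups that did not overlap, 3 had the lowest changes. Cpn2, a subunit of the enzyme that trims anaphylatoxins, was at -0.69 ± 0.16, C1qc, a chain of the C1q recognition protein that macrophages make, at -0.60 ± 0.15, and Cfp, which stabilises the alternative convertase, at -0.56 ± 0.19.

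The highest changes among other complement genes with an unadjusted p below 0.05 and groups that did not overlap were in genes of membrane proteins. C3ar1 and Cr1l, also membrane protein genes of that list, met the same limits with smaller changes of 0.36 and 0.33. Cd59b (0.06) and C5ar2 (-0.36) did not meet them. Cd46, a membrane cofactor that protects host cells from complement, was at -3.67, -3.54 and -3.35 in corn oil and -2.65, -2.73 and -2.47 in CCl4 (0.90 ± 0.13; adjusted p = 0.0518). Its smallest gap between the groups, 0.62, was wide, but the change was 0.45 under normexp. C5ar1, a receptor for the anaphylatoxin C5a on myeloid cells, was within 0.02 on all corn oil arrays, at -1.73 to -1.75, and at -1.25, -1.25 and -0.94 in CCl4 (0.60 ± 0.12; adjusted p = 0.0769). Csmd1, a membrane protein with complement control domains, was at 0.59 ± 0.19, and at 0.17 under normexp.

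In the plasminogen system, genes of a cell-surface receptor were higher on every CCl4 array than on any corn oil array. S100a10 and Anxa2 encode the subunits of a surface receptor for plasminogen and its activator. S100a10 read 0.79, 1.00 and 0.67 in corn oil and 3.40, 3.68 and 2.21 in CCl4 (2.28 ± 0.38; adjusted p = 0.0622). Anxa2 read 2.28, 2.52 and 2.47 in corn oil and 4.78, 4.40 and 3.65 in CCl4 (1.85 ± 0.28; adjusted p = 0.0564). Neither passed, and CCl4 replicate 3 was the lowest CCl4 array for both genes. Without it Anxa2 (2.16, adjusted p = 0.0133) and S100a10 (2.72, adjusted p = 0.00684) passed. F2rl1, a protease-activated receptor, was at -0.84 ± 0.20 (adjusted p = 0.102), with 1 of the 3 CCl4 arrays well above background, and at -0.27 under normexp.

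**Figure D5:**
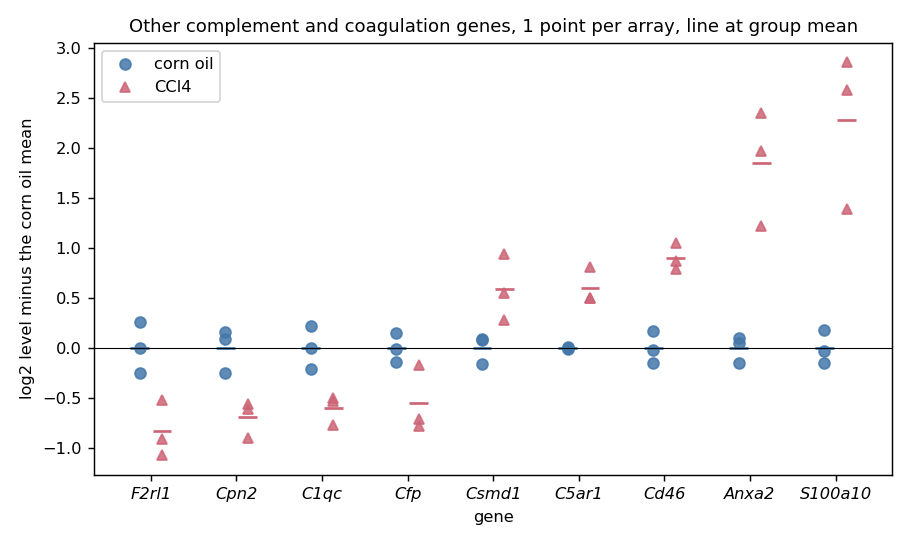
Level of 9 other complement and coagulation genes, as the log2 difference from the corn oil mean (vertical axis), 1 point per array with a line at each group mean. S100a10 and Anxa2 are highest in CCl4 and vary most between its arrays, and no gene has overlapping groups.

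Markers of other cell types and of hepatocytes differed between the groups as well. Hepatocyte markers were lower for 16 of 17 genes with a median of -0.21, and 0 passed. Their summed linear signal, in multiples of each array's 75th percentile, was 10189 to 10815 in corn oil and 8385 to 9378 in CCl4, and that of the 36 members was 8387 to 9993 and 6547 to 7918. Under quantile normalization 13 of 17 hepatocyte markers were lower, with a median of -0.07. Genes of liver transcription factors and interleukin-6 signalling were lower for 15 of 18 with 0 past the threshold, where 57.2% of all genes were lower. Among the lower ones were Cebpa at -0.47 ± 0.16 and Il6st, the shared receptor chain of the interleukin-6 family, at -0.47 ± 0.12, while Stat3 was at -0.016. The 3 higher ones were Cebpd (0.45), Dbp (0.33) and Foxa1 (0.10). Macrophage markers summed to 142 to 157 in corn oil and 181 to 203 in CCl4, with 9 of 14 higher. Of them 3 were past the threshold (Trem2, Gpnmb and Lgals3, all higher), while Csf1r, counted as higher, was at 0.008. The 5 lower ones were Cd14 (-0.69), Vsig4 (-0.50), Adgre1 (-0.43), Cd163 (-0.42) and Clec4f (-0.35), with 0 past the threshold. Stellate cell markers summed to 41.6 to 50.4 in corn oil and 55.4 to 80.2 in CCl4, with 8 of 10 higher and 0 past it. Endothelial markers (5 of 7 higher, sums of 54.3 to 65.5 and 46.5 to 58.3), platelet markers (4 of 6 lower, 1.64 to 2.54 and 2.05 to 3.21), bile duct markers (4 of 5 higher, 1.41 to 1.54 and 1.78 to 4.49) and lymphocyte markers (4 of 8 higher, 5.32 to 6.62 and 5.26 to 5.52, with Gzma lower past the threshold) completed the set. The bile duct gene Spp1 read -1.02, -2.19 and 1.57 on CCl4 replicates 1 to 3. Changes of the others were 0.52 (Epcam), 0.50 (Cftr), 0.008 (Krt7) and -0.17 (Krt19). Of the listed markers, 1 macrophage, 3 endothelial, 2 platelet, 1 bile duct and 1 lymphocyte gene were not measured, nor was 1 of 19 in the list of transcription factors and interleukin-6 signalling. The part of these shifts in the members' decrease was not tested.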

How the data were processed

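Total liver RNA, labelled with Cy3 on 1-colour Agilent rat arrays, was measured in 3 corn oil and 3 CCl4 rats, grouped by the treatment label, which the labels describe as separate animals. The deposited scanner files hold background-subtracted intensity values from Agilent Feature Extraction (version 10.7.1.1 per the file headers, given as 10.7 in the submitters' notes), not scaled between arrays. The authors' value table is a linear ratio, each array's signal divided by 1 constant (583.3 to 676.5), near its 75th percentile (582.6 to 675.6), with column medians of 0.103 to 0.110. That step was inferred from the values. The flags and other columns used are described per the file headers.

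Of 61537 probes other than controls, 28206 (45.8%) matched 1 symbol through the unversioned accession in RefSeq's GRCr8 table, and 26 with an outlier flag were left out. The array design names another build, so no probe coordinates are given. Signals were log2-transformed, the 75th percentile of each array was subtracted, and the brightest probe well above background on at least 3 of 6 arrays stood for a gene. The test was limma 3.58.1 under R 4.3.3 (two-sided, Benjamini-Hochberg over 11939 genes, threshold 0.05) after a check on simulated data. On each array 61.9% to 67.3% of probes were well above background, and the number of arrays limits the precision. The replicate numbers were not taken to pair animals, as deviations of same-numbered arrays correlated at -0.05, 0.16 and 0.02.

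Values are given per array for members with an unadjusted p below 0.05 and groups that did not overlap and for the largest change in each role, and other genes of the pathway are named for the 3 largest such changes per list and direction, apart from 1 that is not reported here. The level limit of 8, the gene examples from marker lists and the examples of single probes were chosen after values were seen, and the members and lists were chosen with earlier results of these data known. Alternatives were quantile normalization, median scaling, normexp (offset 50, on median spot signals), the authors' values, no filter or one on all 6 arrays, probe means, a variance trend, array weights, slide as a fixed or random block (statmod 1.5.0), only the first slide, a block for replicate number, and dropping 1 array at a time. Tables and plots used pandas 2.3.3, numpy 2.4.6 and matplotlib 3.10.9 under Python 3.11.15.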

Additional observations from a re-analysis of the deposited data

How the results depend on the processing

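Under the 19 alternatives limma called 0 members, with a smallest adjusted p of 0.0503 to 0.281, the members with a lower mean numbered 33 to 36, and the median change of the members stayed between -0.44 and -0.24, with -0.44 to -0.26 when 1 array was left out. All genes changed numbered 76, and 214 under normexp, 156 with a variance trend, 139 with the filter on all 6 arrays, 128 with array weights, 4 with slide as a fixed block, 0 within the first slide, and 2 to 241 when 1 array was left out. With the replicate number as a block 10 genes passed and 0 members did, and 3 of 6 arrays correlated best with the array of their own number. Other complement and coagulation genes changed numbered 0, and 3 under normexp and a variance trend (S100a10, Anxa2 and Lman1), 3 with array weights and the filter on all 6 arrays (S100a10, Anxa2 and Cd46), 1 under median scaling (Anxa2), 1 with probe means and with slide as a random block (Cd46 in each), and 0 to 3 when 1 array was left out. Of 854 values of the 45 named genes, 822 kept their direction and side of the threshold. C2 turned to -0.023 under median scaling, -0.018 with array weights, -0.016 with probe means and -0.047 under normexp, and ran from -0.052 to 0.081 when 1 array was left out. F7 turned to -0.021 under median scaling and to -0.036 with slide as a fixed block and within the first slide, and ran from -0.14 to 0.11 when 1 array was left out. Klkb1 ran from -0.91 to 0.19 when 1 array was left out, and Kng1 turned to 0.024 with slide as a fixed block and within the first slide. The cause was not tested. With 3 animals per group and a median standard error of 0.15 among the members, changes of the size seen here lie near what the spread between animals lets a single gene show.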
